A study of Mus musculus with 11 samples.

Results

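The proteasome is the protease complex that breaks down ubiquitin-tagged proteins, and the report concerns the mouse genes of its subunits, regulators and assembly chaperones in motor-neuron-like cells with less Tardbp RNA. Members were all genes whose single symbol in the platform annotation began with Psma, Psmb, Psmc, Psmd, Psme, Psmf or Psmg. This gave 43 of 15803 genes and 385 of 194293 probe sets. By textbook role they were 11 genes of the 20S core, 16 of the 19S cap, 5 of the immunoproteasome with its PA28 activator, 6 assembly chaperones, 3 other regulators, the thymus-specific core subunit Psmb11, and Psmc3ip. The subunit genes Psma4, Psma5, Psmb3 and Psmd1 were not among the members, so the core and cap were covered only in part. Psmc3ip encodes the meiotic recombination factor Hop2 and is no proteasome subunit. It met the rule by its name and is counted but described apart.

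RNA of NSC34 cells, a mouse hybrid of neuroblastoma and spinal cord cells, was measured on 11 Affymetrix whole-transcript arrays. Lines were stable clones kept under puromycin selection after lipofection of a pSUPERIOR hairpin vector, so every group carried a vector and had been selected. Tardbp was targeted on 4 arrays (shTardbp 1 to 4), GFP, absent from mouse cells, on 4 control arrays (shGFP 1, 2, 3 and 5), and Renilla luciferase, likewise absent, on 3 control arrays (shLuciferase 1, 2 and 4). Tardbp encodes TDP-43, an RNA-binding protein that leaves the nucleus of motor neurons in amyotrophic lateral sclerosis, and the series asks what its loss does to transcripts. Whether replicate arrays represent separate clones or cultures is not stated, so a p-value here weighs only the spread from array to array, which may be technical. In bulk RNA, fewer cells of a type and less RNA per cell cannot be told apart.

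The 26S proteasome consists of a barrel, the 20S core, with caps on its ends. The barrel stacks rings of alpha subunits, which gate the entrance, on rings of beta subunits, of which 3 kinds cut peptide bonds. The 19S cap has a base with ATPases that unfold substrates and a lid that removes ubiquitin. Interferon-gamma replaces the cutting subunits by the immunoproteasome subunits Psmb8, Psmb9 and Psmb10, whose peptides suit MHC class I presentation. When proteasome capacity is short, the transcription factor NRF1, encoded by Nfe2l1, raises most core and cap genes together through antioxidant response elements.

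Each gene was given the mean log2 value over its probe sets, and a log2 change is a difference of group means of such values. Medians of the arrays lay between 6.82 and 6.92 (log2). Tardbp was 8.82, 8.80, 8.997 and 8.91 in shTardbp, 9.25, 9.08, 9.36 and 9.42 in shGFP, and 9.29, 9.38 and 9.20 in shLuciferase. All 4 shTardbp values lay below all 7 control values. The log2 change was -0.40 (SE 0.072), with an adjusted p of 0.000713 by limma and a p of 0.00303 by an exact two-sided permutation test, the smallest that 330 splits allow. With the letter of the array code as a block, described below, it was -0.29 (limma adjusted p = 0.173). All 4 measured neuron markers stood above the 25th percentile of probe sets on every array, as did 6 of 9 motor neuron markers, while Mnx1, Chat and Slc5a7 lay below it on every array. So did 4 of 5 glia markers, Gfap, Mbp, Sox10 and Olig2, stand above it, and 4 of 5 fibroblast markers. This cut alone therefore does not set neurons apart. On every array, 4 neuron and 5 motor neuron markers stood above the median of probe sets, and 0 immune, fibroblast or glia markers did. In shTardbp against both controls, 1 glia and 1 motor neuron marker were called higher. Of 7 immune cell markers, 5 lay below the 25th percentile on every array (Ptprc, Itgam, Aif1, Csf1r and Cd79a), while Cd68 and Cd3e lay above it. The summed log2 level of the 7 was 30.5 to 32.1 in shTardbp and 30.1 to 31.6 in the controls. The 5 fibroblast markers summed to 25.5 to 26.1 in shTardbp and 28.1 to 29.0 in the controls, 2 of them were called lower, and their part in the results below was not tested. The code in the array descriptions starts with P for the 4 shTardbp arrays and shLuciferase 4 and with C for the other 6 arrays, and the meaning of the letter is not given.

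The measured transcripts of the 20S core and the 19S cap differed little between shTardbp and the controls. Only Psmb2 in the core and Psmc4 in the cap passed the test in shTardbp against both controls, and both were lower. The genes that passed outside the core and cap were the chaperone Psmg1, the nuclear activator Psme3, the regulator Psmf1, the immunoproteasome subunit Psmb10 and Psmc3ip, all lower, and the activator subunit Psme2, which was higher. In total 8 of 43 members passed (18.6%), 1 higher and 7 lower, where 30.5% of all genes passed (13.5% higher and 17% lower). Without Psmc3ip the count was 7 of 42 (16.7%). The share of members called was thus below the background share. At an unadjusted p under 0.05 there were 12 members (27.9%, where 37.7% of all genes met it), 2 higher and 10 lower (4.65% and 23.3%, where 17.2% and 20.5% of all genes did). Without shTardbp 1, shTardbp 3 or shLuciferase 2, left out in turn, the count was 5.

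With the array letter as a block, 1 member passed, Psmc4 (2.33% of members, where 15.9% of all genes passed). In that fit the shTardbp arrays are tied to the controls through shLuciferase 4, the 1 control array with their letter. In 7 of the 8 called members all 4 shTardbp values lay on the called side of shLuciferase 4, and the exception was Psme2. These members were called with shLuciferase 4 among the controls, so this count is no separate check of the letter. The same count over all called genes was not made. Psmb10 is among the 7, although its sign turned with the letter as a block. For the other 6 control arrays, the letter and the hairpin cannot be told apart. The sign of the log2 change turned in 12 of the 43 members with the letter as a block.

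**Figure D1:**
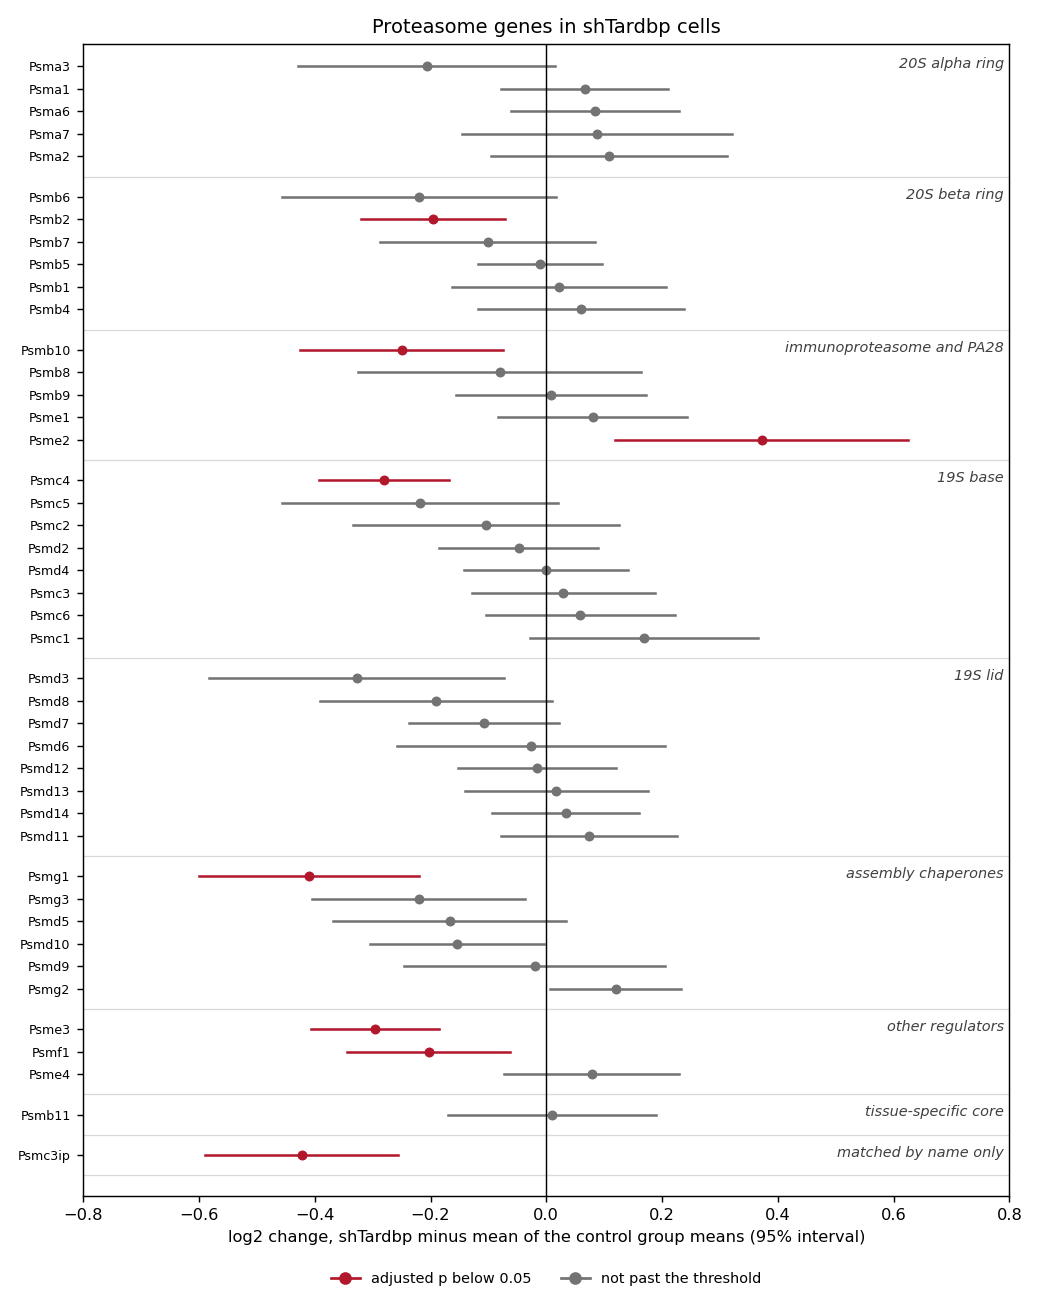
Log2 change of each of the 43 members in shTardbp against the mean of both control group means (points) with its 95% interval (lines), grouped by role; red marks an adjusted p below 0.05. The 8 red genes are 2 of the 27 core and cap genes and 6 of the other 16 members, and 24 of 27 core and cap intervals include 0.

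Sizes were modest. No member changed by 0.5 or more on the log2 scale (1.41-fold), a size that 1354 of all genes reached. The median log2 change was -0.020 over the 43 members and 0.0072 over all genes. It was 0.022 for the 20S core, -0.021 for the 19S cap, 0.0078 for the immunoproteasome and PA28, and -0.16 for the assembly chaperones. For core and cap together 2 of 27 genes passed (7.41%), while 6 of the other 16 members did (37.5%), Psmc3ip among them. Over all genes the share was 30.5%, so that of the other members was near the background. The 95% intervals of 26 of the 27 core and cap genes lay within 0.5 log2 on either side of no change, so that a larger change lay outside the interval for each of them. The exception was Psmd3, described below.

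The alpha ring, whose subunits form the gate of the barrel, was represented by Psma1, Psma2, Psma3, Psma6 and Psma7. None of the 5 passed in shTardbp against both controls by limma on all 11 arrays, and none had an unadjusted p under 0.05. Psma2 had the highest log2 change, 0.11 (95% interval -0.095 to 0.31), and was followed by Psma7 at 0.088, Psma6 at 0.084 and Psma1 at 0.066. Psma3, measured by 1 probe set, was at -0.21 (95% interval -0.43 to 0.016), and passed without shTardbp 4 (-0.30, limma adjusted p = 0.041) and with array weights (limma adjusted p = 0.0472). Its values were 7.98, 7.55, 7.54 and 8.06 in shTardbp, 7.97, 7.74, 7.89 and 7.75 in shGFP, and 8.12, 8.24 and 8.05 in shLuciferase. The spread within shTardbp was wide (SD 0.28), since shTardbp 2 and 3 were low and shTardbp 1 and 4 were not.

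The cutting subunits of the standard barrel are Psmb5 (chymotrypsin-like activity), Psmb6 (caspase-like) and Psmb7 (trypsin-like). Psmb5 was 12.64, 12.70, 12.72 and 12.61 in shTardbp, 12.66, 12.67, 12.67 and 12.64 in shGFP, and 12.66, 12.69 and 12.73 in shLuciferase. The groups overlapped fully, and the log2 change of -0.011 had an interval of -0.12 to 0.097 (limma adjusted p = 0.923). Psmb6 was 9.99, 10.29, 9.80 and 9.98 in shTardbp, 10.22, 10.40, 10.02 and 10.15 in shGFP, and 10.31, 10.51 and 9.99 in shLuciferase. Its 4 probe sets were all lower, but shTardbp 2 lay among the controls and shLuciferase 4 among the shTardbp arrays (log2 change -0.22, 95% interval -0.46 to 0.016, limma adjusted p = 0.165), and Psmb6 passed without either of them (limma adjusted p = 0.0463 and 0.0457) and with array weights (limma adjusted p = 0.0276). With the array letter as a block its sign turned, to 0.13 (limma adjusted p = 0.689). Psmb7 was 11.12, 11.07, 10.87 and 10.68 in shTardbp, 11.03, 11.24, 10.98 and 10.95 in shGFP, and 11.06, 11.02 and 10.98 in shLuciferase. Again the groups overlapped, with shTardbp 1 above 6 of the 7 controls (log2 change -0.10, 95% interval -0.29 to 0.084).

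Among the beta subunits without cutting activity, Psmb2 fell. Its values were 11.23, 11.29, 11.23 and 11.33 in shTardbp, 11.47, 11.54, 11.33 and 11.37 in shGFP, and 11.45, 11.55 and 11.51 in shLuciferase. All 4 shTardbp values lay below all 7 control values, the closest pair being shTardbp 4 and shGFP 3. Psmb2 changed by -0.20 on the log2 scale (SE 0.058), or 1.15-fold lower, with an adjusted p of 0.0185 by limma. All 6 probe sets were lower, none of them past the threshold on its own. Of the 50 genes nearest to Psmb2 in the reference gene order, 3 were called higher and 19 lower, with a median log2 change of -0.049. After subtraction of the neighbours' shift the log2 change of Psmb2 was -0.11 and no longer passed (limma adjusted p = 0.177). It also did not pass without shTardbp 1 (limma adjusted p = 0.054) or shTardbp 3 (limma adjusted p = 0.0647). Psmb1 (0.022) and Psmb4 (0.060) did not pass.

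The base of the cap holds the ATPases Psmc1 to Psmc6, with Psmd2 and the ubiquitin receptor Psmd4. Psmc4, the ATPase Rpt3, fell. It was 9.71, 9.67, 9.75 and 9.76 in shTardbp, 9.86, 9.95, 9.84 and 9.92 in shGFP, and 10.07, 10.10 and 10.18 in shLuciferase. The 3 groups did not overlap at all, with shTardbp lowest, shGFP between and shLuciferase highest. Psmc4 changed by -0.28 on the log2 scale (SE 0.052), 1.21-fold lower, with an adjusted p of 0.00091 by limma. It was -0.17 against shGFP (limma adjusted p = 0.0452) and -0.39 against shLuciferase (limma adjusted p = 0.000399). The control groups themselves differed in Psmc4, with shGFP lower by -0.22 than shLuciferase (limma adjusted p = 0.0382). Of its 11 probe sets, 10 were lower and 7 passed. Of the 50 neighbours of Psmc4, 3 were called higher and 17 lower, and the call held after their shift was subtracted, with a log2 change of -0.16.

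Groups can be read as not overlapping only against the background. The 4 shTardbp values lay beyond all 7 control values in 4 members, Psmb2, Psmc4, Psmg1 and Psme3, all lower. Over all genes this held for 18.3% (8.45% higher and 9.82% lower), so 4 of 43 is close to the background for lower genes.

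The other 7 base genes did not pass against both controls. Psmc1 had a log2 change of 0.17 (95% interval -0.029 to 0.37), but with the median of its 3 probe sets it was 0.44 and passed (limma adjusted p = 0.0204). That median is the value of probe set 4558760 on every array, so the setting rests on 1 probe set. Probe sets 5381552 and 5515824 of Psmc1 were at -0.029 and 0.093. The log2 change of Psmc6 was 0.059, of Psmc3 0.029, of Psmd4 -0.00036, of Psmd2 -0.048, of Psmc2 -0.10 and of Psmc5 -0.22 (95% interval -0.46 to 0.020). Psmc5 was lower in 12 of its 13 probe sets, with 1 past the threshold. It passed with array weights (-0.31, limma adjusted p = 0.0154). With the array letter as a block its sign turned, to 0.10 (limma adjusted p = 0.759). Its gene values were 7.503 to 7.89 in shTardbp, against 7.57 to 8.12 in shGFP and 7.80 to 8.24 in shLuciferase.

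In the lid, which holds the deubiquitinase Psmd14 (Rpn11) among scaffold subunits, none of 8 genes passed against both controls by limma, and 1, Psmd3, had an unadjusted p under 0.05. Psmd3 (Rpn3) was 8.73, 8.82, 8.38 and 8.55 in shTardbp, 8.71, 9.23, 8.74 and 8.81 in shGFP, and 9.05, 9.24 and 8.78 in shLuciferase. Its log2 change of -0.33 (95% interval -0.58 to -0.072) missed the threshold with an adjusted p of 0.0513, and passed without shTardbp 2, shGFP 1 or shLuciferase 4 (limma adjusted p = 0.0224 to 0.0439). Psmd3 also passed with array weights (-0.42, limma adjusted p = 0.00548). So it did with the replicate block, centring or only genes above the median level (limma adjusted p = 0.0207 to 0.0396). With the median of its probe sets it was -0.25 and did not pass (limma adjusted p = 0.235). With the array letter as a block the change was -0.019 (limma adjusted p = 0.963). All 12 probe sets were lower and 3 passed. shTardbp 3 and 4 lay below every control, while shTardbp 1 and 2 lay within the control range. Psmd8 (-0.19), Psmd7 (-0.11), Psmd6 (-0.027), Psmd12 (-0.016), Psmd13 (0.017), Psmd14 (0.033) and Psmd11 (0.074) did not pass, and of these Psmd8 had the interval reaching lowest, -0.39 to 0.0093.

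**Figure D2:**
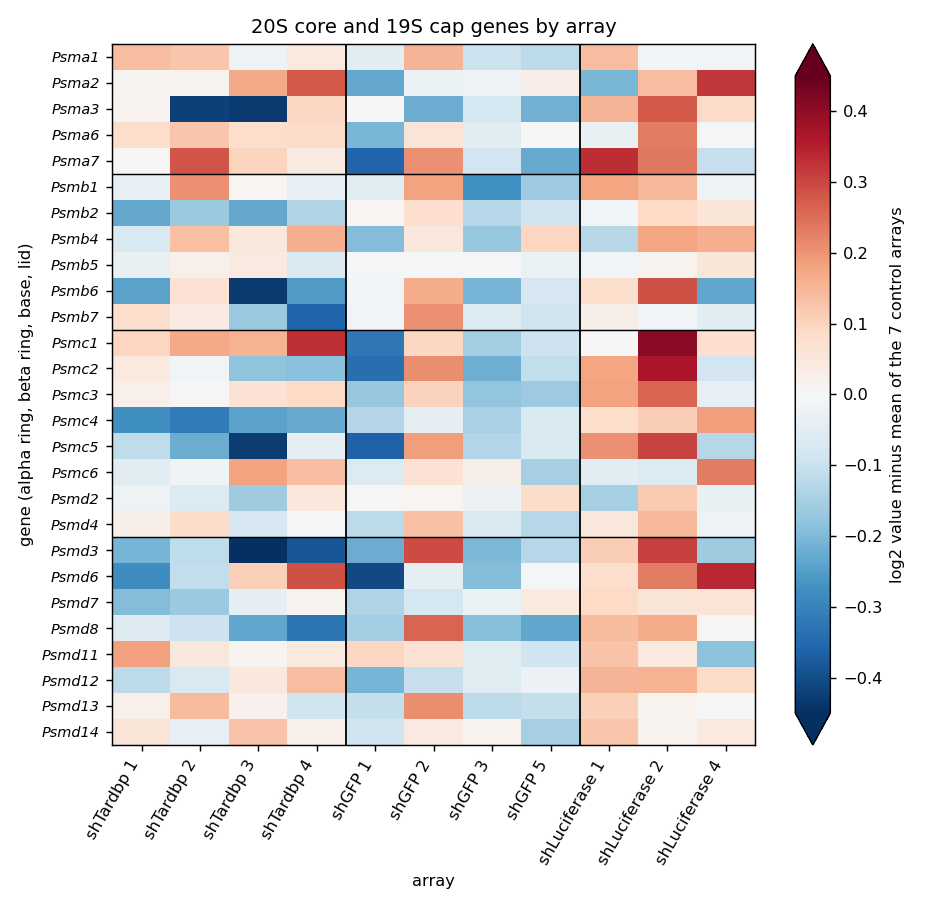
Log2 value of each of the 27 core and cap genes (rows, ordered by alpha ring, beta ring, base and lid) on each of the 11 arrays (columns), minus the gene's mean over the 7 control arrays. Psmb2 and Psmc4 are lower in all 4 shTardbp columns, and most genes are above the mean in shLuciferase 2 and shGFP 2 and below it in shGFP 1, 3 and 5.

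The heat map of core and cap genes by array also shows that whole arrays differed. Averaged over the 27 genes, the log2 level was 10.16 ± 0.031 (SD, n = 4) in shTardbp, 10.14 ± 0.10 (SD, n = 4) in shGFP and 10.28 ± 0.067 (SD, n = 3) in shLuciferase. The shTardbp arrays were thus close to shGFP and closer to each other than the control arrays were. By array, 20 of the 27 genes stood above the control mean in shGFP 2, against 3 in shGFP 1, 2 in shGFP 3 and 5 in shGFP 5. In shLuciferase 2 it was 24 genes, in shLuciferase 1 it was 19 and in shLuciferase 4 it was 13. In the shTardbp arrays 13 to 15 of the 27 genes stood above the control mean. As shares these were 74.1% in shGFP 2, 11.1% in shGFP 1, 7.41% in shGFP 3 and 88.9% in shLuciferase 2, where 62.4%, 37.8%, 56.2% and 61.2% of all genes above the median level stood above it in the same arrays.

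The control groups were compared in the same model. Psmc4 and Psmf1 passed between shGFP and shLuciferase (2 of 43 members, both lower in shGFP), where 11.1% of all genes passed (6.26% higher and 4.82% lower). No member was higher in shGFP by limma, also at an unadjusted p under 0.05, at which 11 were lower (25.6%, where 11.2% of all genes were lower and 11.5% higher). The count of 2 was 0 without any 1 of shGFP 1, 3 or 5 or shLuciferase 1 or 2, 1 without shTardbp 3, and 4 without shGFP 2. By sign alone, the group mean was lower in shGFP than in shLuciferase in 38 of 43 members (88.4%), against 52.3% of all genes and 52.3% of genes above the median level. The median log2 difference was -0.11 over the members and -0.0069 over all genes. Without shGFP 2, a setting added after its values were seen, 41 of 43 members were lower in shGFP (95.3%, with 50.8% of all genes), and the median difference was -0.16. These counts were not tested.

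Each control was also compared alone. In shTardbp against shGFP 3 members were higher and 4 lower, where 27.9% of all genes passed (12.4% higher and 15.5% lower). The 3 higher members were Psme2 (0.58), Psmc1 (0.31) and Psmg2 (0.22). The 4 lower ones were Psmg1 (-0.43), Psmc3ip (-0.31), Psme3 (-0.26) and Psmc4 (-0.17), and 2 members were lower without shTardbp 1 or without shGFP 2. In shTardbp against shLuciferase no member was higher and 7 were lower, where 26.1% passed (11.8% higher and 14.3% lower). At an unadjusted p under 0.05 again none was higher, where 15.9% of all genes were, and 14 were lower (32.6%, where 18.8% of all genes were). The 7 were Psmc3ip (-0.54), Psmc4 (-0.39), Psmg1 (-0.38), Psmb10 (-0.37), Psmf1 (-0.36), Psme3 (-0.33) and Psmb2 (-0.23), and the count was 4 without shLuciferase 2 and 11 without shLuciferase 4. Both comparisons use the same shTardbp arrays. The shTardbp mean lay between the control means in 11 of 27 core and cap genes (40.7%), against 25% of all genes, and in each of those 11 shLuciferase was the higher control.

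**Figure D3:**
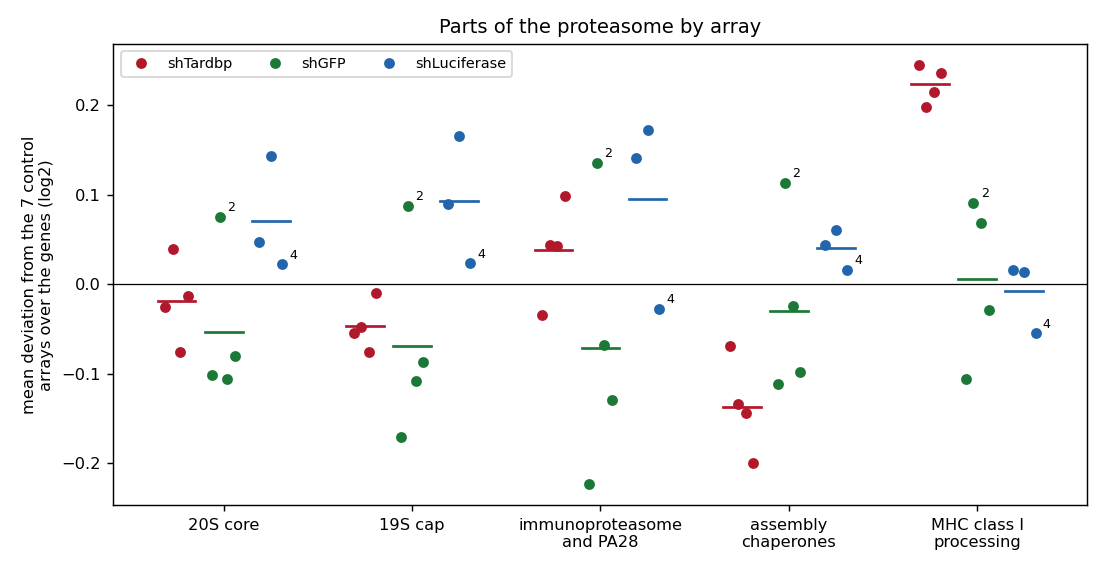
Mean deviation from the 7 control arrays (log2) over the genes of 4 parts of the proteasome and of the MHC class I processing list, which includes interferon regulators. There is 1 point per array and a line at the group mean, and the numbers 2 and 4 mark shGFP 2 and shLuciferase 4. The core and cap means of shTardbp lie between the control means while the points of the groups overlap, assembly chaperones of shTardbp lie low, and MHC class I points of shTardbp all lie above the controls.

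Of the 5 immunoproteasome and PA28 genes, Psmb10 was lower, Psme2 was higher and 3 did not pass in shTardbp against both controls. Psmb8 (beta5i) was 6.36, 6.45, 6.30 and 6.51 in shTardbp, 6.12, 6.88, 6.50 and 6.34 in shGFP, and 6.57, 6.58 and 6.38 in shLuciferase. The log2 change was -0.081 (95% interval -0.32 to 0.16), and shGFP alone spanned more than all the other arrays. Psmb9 (beta1i) was 5.51, 5.58, 5.62 and 5.63 in shTardbp, 5.46, 5.81, 5.54 and 5.41 in shGFP, and 5.56, 5.71 and 5.52 in shLuciferase. All 4 shTardbp values lay within the control range, with a log2 change of 0.0078 (95% interval -0.16 to 0.17, limma adjusted p = 0.964).

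Psmb10 (beta2i) was 6.94, 7.02, 6.91 and 6.83 in shTardbp, 7.09, 7.21, 7.005 and 6.90 in shGFP, and 7.40, 7.43 and 7.06 in shLuciferase. It passed with a log2 change of -0.25 (SE 0.081, limma adjusted p = 0.031), 1.19-fold lower, although shGFP 3 and shGFP 5 overlapped the shTardbp arrays. Against shGFP alone the change was -0.13 and did not pass (limma adjusted p = 0.377). With the array letter as a block the sign turned, to 0.044 (limma adjusted p = 0.844). Without any 1 of shTardbp 1, 3 or 4, shGFP 2 or shLuciferase 1 or 2 it did not pass (limma adjusted p = 0.0513 to 0.0975).

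PA28 is a ring of the products of Psme1 and Psme2 that opens the gate of the barrel. Psme1 was 9.92, 10.25, 10.07 and 10.05 in shTardbp, 9.98, 10.08, 9.83 and 9.90 in shGFP, and 10.06, 10.16 and 9.91 in shLuciferase. Its 8 probe sets were all above 0 in log2 change, none passed, and the gene's change was 0.080 (95% interval -0.083 to 0.24). Psme2 was 7.06, 6.87, 7.27 and 7.42 in shTardbp, 6.18, 6.65, 6.73 and 6.76 in shGFP, and 7.07, 6.95 and 6.95 in shLuciferase. All shTardbp values lay above all shGFP values, while shTardbp 1 and 2 lay within or below the shLuciferase range. The log2 change was 0.37 (SE 0.12), 1.29-fold higher, with an adjusted p of 0.0273 by limma against both controls, 0.00452 against shGFP and 0.496 against shLuciferase. Psme2 rests on 1 probe set and has a near-identical copy, Psme2b, which can share its probes, and it did not pass without any 1 of shTardbp 3 or 4 or shLuciferase 2 or 4 (limma adjusted p = 0.0504 to 0.108).

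**Figure D4:**
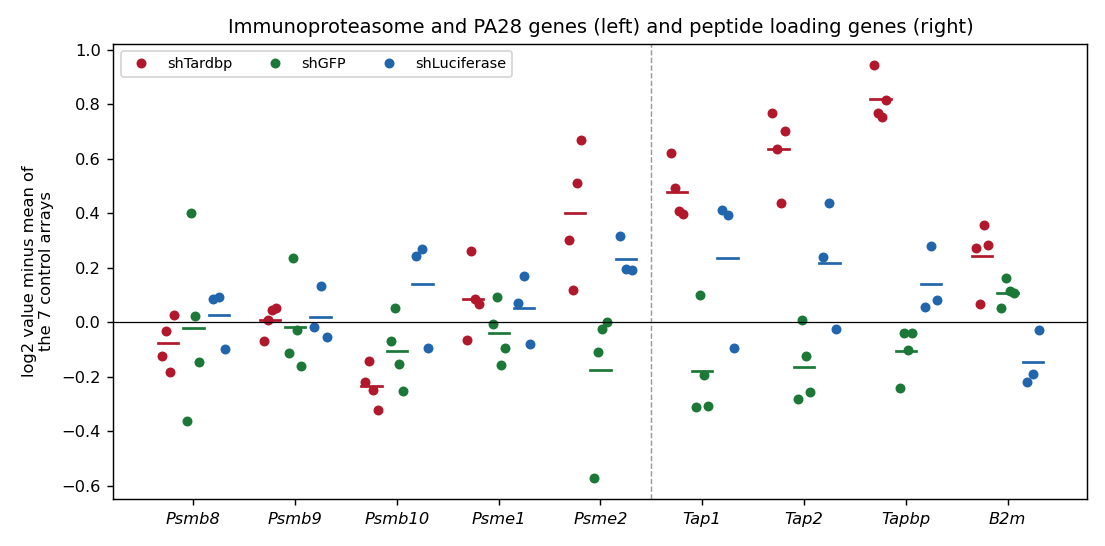
Log2 value minus the gene's mean over the 7 control arrays for the immunoproteasome and PA28 genes (left) and 4 genes of MHC class I peptide loading (right), 1 point per array and a line at the group mean. Psmb8 and Psmb9 overlap in all groups, and Tapbp is higher in the 4 shTardbp arrays than in all 7 controls.

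The immunoproteasome serves MHC class I peptide supply. Genes of MHC class I processing and its interferon regulators were counted from a list of 20, of which 18 were measured. In shTardbp against both controls 9 of the 18 were higher and none lower by limma (13.5% of all genes were higher). Against shGFP alone 7 were higher and 2 lower, where 12.4% and 15.5% of all genes were. The 2 were H2-K1 (-0.36, limma adjusted p = 0.0258) and the kinase Jak1 (-0.29, limma adjusted p = 0.0153). Against shLuciferase alone 8 were higher and none lower, where 11.8% and 14.3% of all genes were. Tapbp, the peptide-loading chaperone tapasin, had a log2 change of 0.80, the interferon signalling factor Irf9 of 0.68, the peptide transporter subunits Tap2 of 0.61 and Tap1 of 0.45, the kinase Jak2 of 0.60 and the chaperone Calr of 0.28. The other 3 were Tapbpl, B2m and Stat2, at 0.26 to 0.28. Of the 9, Irf9, Jak2 and Stat2 are interferon regulators. The interferon-induced regulator Irf1 (0.00089) and the class I heavy chains H2-K1 (-0.22) and H2-D1 (0.056) did not pass against both controls.

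Psmb9 and Tap1 are transcribed away from each other from a shared stretch, so their values can be set side by side. Tap1 was 7.29, 7.16, 7.07 and 7.06 in shTardbp, 6.36, 6.77, 6.47 and 6.36 in shGFP, and 7.08, 7.06 and 6.57 in shLuciferase. It was higher than shGFP in every shTardbp array (log2 change 0.66, limma adjusted p = 0.000863) and overlapped shLuciferase 1 alone (log2 change against shLuciferase 0.24, limma adjusted p = 0.212). Psmb9 had log2 changes of 0.026 against shGFP and -0.011 against shLuciferase. Whether the changes of both genes differ was not tested. The whole interval between their annotated starts is shown because it faces both genes. Its position is chr17:34187331-34187555 of GRCm38.p6 on the plus strand, from RefSeq, with matches to the CCAAT box (CCAAT) and the GC box (GGGCGG), on either strand, in capitals.
Psmb9-Tap1 interval: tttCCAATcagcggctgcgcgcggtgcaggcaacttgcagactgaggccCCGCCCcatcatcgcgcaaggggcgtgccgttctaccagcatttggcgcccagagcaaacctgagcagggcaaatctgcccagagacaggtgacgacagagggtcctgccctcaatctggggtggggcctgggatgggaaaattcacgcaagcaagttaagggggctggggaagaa
Psmb9 lies to the left of this stretch and Tap1 to the right, so both boxes are nearer to the start of Psmb9.

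Assembly chaperones hold partly built rings and are not part of the finished protease. The fall of Psmg1 (PAC1), which pairs with Psmg2 (PAC2) to build the alpha ring, was the second largest log2 change among the members. It was 8.35, 8.31, 8.07 and 8.27 in shTardbp, 8.58, 8.92, 8.55 and 8.69 in shGFP, and 8.48, 8.83 and 8.60 in shLuciferase. All 4 shTardbp values lay below all 7 control values. Psmg1 changed by -0.41 on the log2 scale (SE 0.088), 1.33-fold lower, with an adjusted p of 0.00267 by limma. It was close to the same against shGFP (-0.43) and shLuciferase (-0.38). All 7 probe sets were lower and 4 passed. Its partner Psmg2 was 10.22, 10.13, 10.13 and 10.05 in shTardbp, 9.87, 9.95, 9.93 and 9.91 in shGFP, and 10.11, 10.11 and 10.11 in shLuciferase. All 4 shTardbp values lay above the shGFP values (log2 change 0.22, limma adjusted p = 0.0124) and around those of shLuciferase (log2 change 0.022, 95% interval -0.11 to 0.16). Against both controls it was 0.12 (limma adjusted p = 0.108). Of its 10 probe sets, 5557828 was at 1.01 and the other 9 ran from -0.17 to 0.15. Taking the median over its probe sets, the change against both controls was 0.0070 (limma adjusted p = 0.975).

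The other 4 chaperones did not pass against both controls on all 11 arrays. Psmg3 (PAC3) had a log2 change of -0.22 (95% interval -0.40 to -0.037, limma adjusted p = 0.068), and passed without shTardbp 3 (limma adjusted p = 0.0452) or shLuciferase 4 (limma adjusted p = 0.0485). It was -0.34 with the median of the probe sets (limma adjusted p = 0.0114) and -0.079 with the array letter as a block (limma adjusted p = 0.781). The cap chaperones were Psmd5 at -0.17, Psmd10 (gankyrin) at -0.15 and Psmd9 at -0.020, of which Psmd10 passed without shGFP 1 (limma adjusted p = 0.0313). Psmd5 passed with array weights (limma adjusted p = 0.0493), and its sign turned, to 0.15, with the array letter as a block (limma adjusted p = 0.556). All 12 probe sets of Psmd5 and all 8 of Psmd10 were below 0, with 1 of these 20 past the threshold. Averaged over the 6 chaperones, the log2 level was 8.17 ± 0.054 (SD, n = 4) in shTardbp, 8.27 ± 0.10 (SD, n = 4) in shGFP and 8.34 ± 0.023 (SD, n = 3) in shLuciferase. The highest shTardbp array, at 8.23, lay above shGFP 1 and shGFP 5.

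Among regulators that bind the barrel in place of the cap, Psme3 (PA28 gamma), the nuclear activator, had the smallest p of all members. It was 11.96, 11.94, 11.96 and 11.99 in shTardbp, 12.15, 12.27, 12.28 and 12.20 in shGFP, and 12.28, 12.34 and 12.26 in shLuciferase. The 4 shTardbp values lay within 0.05 of each other and below all 7 controls. Psme3 changed by -0.30 on the log2 scale (SE 0.051), 1.23-fold lower, with an adjusted p of 0.000527 by limma. All 11 probe sets were lower and 6 passed. Its 50 neighbours were balanced, with 13 called higher and 11 lower. Psme4 (PA200), another nuclear activator with 52 probe sets, had a log2 change of 0.078 (95% interval -0.073 to 0.23) and did not pass. Of its 50 neighbours, 4 were called higher and 17 lower, with a median log2 change of -0.13. After subtraction of the neighbours' shift Psme4 was at 0.20 and passed (limma adjusted p = 0.0421).

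Psmf1 encodes PI31, which binds proteasomes and was first described as an inhibitor. It was 10.03 to 10.14 in shTardbp, 10.02 to 10.34 in shGFP and 10.41 to 10.49 in shLuciferase. The shTardbp arrays overlapped shGFP and lay below shLuciferase. The log2 change was -0.20 against both controls (limma adjusted p = 0.0296), -0.36 against shLuciferase (limma adjusted p = 0.0042) and -0.051 against shGFP (limma adjusted p = 0.717). The difference between shGFP and shLuciferase itself was -0.30 (limma adjusted p = 0.0244). Against both controls Psmf1 did not pass without any 1 of shTardbp 1, 3 or 4, shGFP 3 or shLuciferase 2 (limma adjusted p = 0.0504 to 0.0886).

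Psmb11, the cutting subunit of thymic epithelium, was 3.59 to 3.98 in shTardbp, 3.70 to 4.03 in shGFP and 3.71 to 3.79 in shLuciferase. It was the 1 member of 43 that was not above the 25th percentile on all arrays, and its log2 change was 0.0099. Psmc3ip was 6.63 to 6.89 in shTardbp, 6.88 to 7.23 in shGFP and 7.21 to 7.45 in shLuciferase. Its log2 change of -0.42 (SE 0.077, limma adjusted p = 0.000809) was the largest among the members, 1.34-fold lower. It lies near Psme3 on chromosome 11.

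At the level of probe sets, 29 of 385 passed, 2 higher and 27 lower (7.53%), where 16% of all probe sets passed (7.48% higher and 8.56% lower). Of the lower ones, 7 were in Psmc4, 6 in Psme3 and 4 in Psmg1, which also passed as genes. The 2 higher ones belonged to Psmc1 and Psmg2. Without any 1 of shTardbp 1, 3 or 4, shGFP 2 or shLuciferase 2, the lower count was 12 to 16. A probe set was also tested against the other probe sets of its gene, since TDP-43 acts on splicing and an exon may change while its gene does not. None of 360 probe sets in 36 member genes passed by limma, where 0.875% of all probe sets passed (0.427% higher and 0.448% lower). At an unadjusted p under 0.05 there were 24 (6.67%), against 12% of all probe sets.

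Among the 5 with the smallest adjusted p, the largest change relative to its gene was that of probe set 5557828 of Psmg2, named for its size. Its values were 9.55, 9.37, 9.72 and 9.57 in shTardbp, 8.28, 7.28, 8.63 and 8.79 in shGFP, and 8.85, 8.56 and 9.09 in shLuciferase. All shTardbp values lay above all controls, and the change relative to the other probe sets of Psmg2 was 0.99 on the log2 scale (limma adjusted p = 0.147). Probe set 4649757 of Psmc5 had a relative change of 0.61 (limma adjusted p = 0.0881), probe set 5173583 of Psmd5 of -0.44 (limma adjusted p = 0.146). The mean level of probe set 4649757 was 4.79, close to the 25th percentile of probe sets, which was 4.51 to 4.62 by array. In Psmc3ip, probe sets 4500337 and 5066381 had relative changes of -0.73 (limma adjusted p = 0.0724) and 0.54 (limma adjusted p = 0.117). Which exons these probe sets cover was not analysed here.

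Of 31 listed regulators and partners of the proteasome, 24 were measured, and 2 were higher and 10 lower in shTardbp against both controls (30.5% of all genes were called in either direction). The 6 with the smallest adjusted p were all lower. They were the shuttle factor Rad23b (-0.33), the cap deubiquitinase Uchl5 (-0.33), Fbxo7 (-0.29), which binds PI31, the deglycosylating enzyme Ngly1 (-0.26), Ufd1l (-0.31), a cofactor of the unfoldase p97, and Akirin2 (-0.26), which takes proteasomes into the nucleus. Of the 50 neighbours of Akirin2, 3 were called higher and 23 lower, with a median log2 change of -0.18. The counts were 5 and 16 for Fbxo7, 3 and 15 for Rad23b, 5 and 9 for Uchl5, and 3 and 10 for Ngly1 (48 neighbours). Ufd1l had no place in the gene order. Rad23b was 10.82, 10.95, 10.97 and 10.91 in shTardbp, 11.15, 11.19, 11.18 and 11.24 in shGFP, and 11.30, 11.28 and 11.31 in shLuciferase, with no overlap. The other 4 lower genes were Pomp, Ubqln1, Ubqln4 and Zfand2a. The 2 higher were the cap deubiquitinase Usp14 (0.27, limma adjusted p = 0.0221) and the transcription factor Mafg (0.19, limma adjusted p = 0.0305). Of 7 genes of ubiquitin supply 2 were measured, Uba6 (0.13) and Usp5 (0.11), and neither passed (limma adjusted p = 0.38 and 0.487).

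Nfe2l1 was 10.11, 10.03, 9.999 and 9.95 in shTardbp, 10.12, 10.37, 10.21 and 10.22 in shGFP, and 9.79, 9.88 and 9.66 in shLuciferase. The shTardbp arrays stood between the controls, with a log2 change of 0.022 (limma adjusted p = 0.874). Nfe2l1 was higher in shGFP than in shLuciferase by 0.45 (limma adjusted p = 0.00196), whereas 38 of 43 members had the lower mean in shGFP. NRF1 is regulated mainly through its processing and stability, which arrays do not measure.

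RefSeq promoter windows, 250 bases before to 50 after the start, were found for 36 of the 43 members. The core of the antioxidant response element (TGACNNNGC, either strand) occurred in 6 of the 36 (16.7%) and in 14% of all 27025 genes with a window. The members were Psmb5, Psmb6, Psmc6, Psmd12, Psmd9 and Psme4, none of which passed against both controls. The matches that lay before the start are shown because this is the letter pattern through which NRF1 is known to act. They are given 5′ to 3′ on the gene's strand in GRCm38.p6, with the match in capitals, at chr14:54618022-54618054 (minus strand) for Psmb5, chr11:70525336-70525356 for Psmb6, chr14:45329585-45329617 for Psmc6, chr11:107479278-107479301 for Psmd12 and chr5:123228147-123228179 for Psmd9.
Psmb5: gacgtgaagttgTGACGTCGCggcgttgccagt
Psmb6: gactaaagagagTGACGGAGC
Psmc6: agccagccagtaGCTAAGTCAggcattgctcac
Psmd12: tctGCTGTGTCAcatttgcccccc
Psmd9: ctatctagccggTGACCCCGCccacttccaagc
In Psmc6 and Psmd12 the match is on the opposite strand. A match is a description of letters and not a known site. The paired half-sites of interferon-stimulated elements (GAAA, any 2 bases, GAAA, either strand) occurred in Psme1, Psmd4 and Psmd9 (8.33% of the 36, and 3.99% of all genes), and the Psmb9 window held none. A GC box occurred in 55.6% of the 36 and 38.2% of all genes, and a CCAAT box in 38.9% and 41.1%.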

How the data were processed

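The authors deposited log2 expression values of probe sets, made with RMA and Partek per the submitters' processing notes, which give no version. Background settings and annotation build were unstated, that is, not given in the sources used here. Of 194293 probe sets, the platform annotation gave 179496 a single gene symbol, 1328 several and 13469 none, and those with 1 symbol made 15803 genes. A gene's value was the mean log2 of its probe sets. With limma 3.58.1 in R 4.3.3, a single 3-group model covered every gene on 11 arrays (8 residual degrees of freedom), with Benjamini-Hochberg adjustment over all genes and a threshold of 0.05. Contrasts were shTardbp minus the mean of both control group means, shTardbp minus each control, and shGFP minus shLuciferase. No filter on low values was used. Probe sets were fitted the same way, and against the mean of the other probe sets of their gene (101753 probe sets in 7531 genes). The tests were tried first on simulated data. The number of arrays limits the precision, and errors with a log2 change are model standard errors.

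The members, their parts and the partner lists were chosen with earlier results of these data known, so lists are described by counts and medians and have no test of their own. Values on every array were given for the cutting subunits, Psme1, Psme2 and the members past the threshold whose shTardbp values lay beyond all controls, and for a few others chosen after their values were seen, namely Psma3, Psmd3, Psmg2, Tap1, Rad23b and Nfe2l1. Up to 6 members of each partner list and 5 probe sets were named by smallest adjusted p, beside others named after their values were seen. Neighbours are the 25 genes on either side in the RefSeq gene order of GRCm38.p6, used for order only. Alternatives were the median of probe sets, 2 filters on low values, quantile normalization again, centring, array letter and replicate number as blocks, array weights, only the groups compared, the neighbours' shift subtracted, and each of 11 arrays left out. Probe set positions were not used, so no probe set is assigned to an exon.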

Additional observations from a re-analysis of the deposited data

Results flagged for a closer look

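In 86 sets of 4 arrays (43 members in shTardbp and in shGFP), 4 held 1 array far from the other 3 by Dixon's criterion at 95%, which chance meets in about 1 set in 20. No such set was in shTardbp. In shGFP 2, Psmc3 was 9.14, where the other shGFP arrays were 8.86 to 8.87, Psmd8 was 9.30, where they were 8.80 to 8.88, and Psmd13 was 9.25, where they were 8.92 to 8.93. All 3 encode cap subunits, and shGFP 2 was the highest shGFP array in 29 of 43 members. It was also the highest shGFP array in 3463 of 7901 genes above the median level and in 4733 of all 15803 genes. In shGFP 5, Psmb5 was 12.64, where the other shGFP arrays were 12.66 to 12.67, and the shTardbp arrays ran more widely, at 12.61 to 12.72. None of these 4 genes passed in shTardbp against both controls.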

How the results depend on the processing

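In shTardbp against both controls, 1 member was higher and 7 lower. The higher count was 2 with the median of probe sets, 0 with the letter block and 0 with only the groups compared, and the lower count was 1 with the letter block and 12 with array weights. Leaving out 1 array gave 0 to 1 higher and 4 to 10 lower. Against shGFP (3 higher, 4 lower), the higher count was 0 with the letter block, and the lower count 1 with the median of probe sets and 0 with the letter block. Leaving out 1 array gave 2 to 4 in each direction. Against shLuciferase (7 lower), the count was 4 with the letter block, 15 with array weights and 4 to 11 with 1 array left out. Between the controls (2 lower), it was 0 with the median of probe sets, the replicate block or only the groups compared, 1 with the filter at the 25th percentile, centring or the neighbours' shift subtracted, 4 with quantile normalization, 10 with array weights and 0 to 4 with 1 array left out. Partner lists (11 higher, 10 lower) gave 6 and 3 with the median of probe sets, 2 lower with the letter block, and 9 to 12 higher and 7 to 10 lower with 1 array left out. Probe sets (2 higher, 27 lower) gave 1 and 1 with the letter block, 12 lower with the replicate block, 4 and 44 with array weights, 1 higher with only the groups compared, and 1 to 3 higher and 12 to 28 lower with 1 array left out. The median log2 change of the 20S core was -0.052 with the letter block. With 1 array left out, medians ran from -0.048 to -0.010 over all members, -0.021 to 0.064 in the core, -0.066 to 0.0061 in the cap, -0.016 to 0.050 in the immunoproteasome and PA28, and -0.19 to -0.13 in the chaperones. Tardbp was -0.29 with the letter block (limma adjusted p = 0.173) and -0.44 to -0.37 with 1 array left out. Psmb10 turned to 0.044 with the letter block. Psmc4 passed in all 21 alternatives, Psme3, Psmg1 and Psmc3ip in 20 (not with the letter block), Psmb2 in 16, Psme2 in 14, Psmf1 in 13 and Psmb10 in 11. The causes were not tested. The 8 pairs of arrays with the same replicate number had correlations of -0.056 to 0.26, so the numbers are not taken as pairs, and with the replicate block 9 members passed against both controls.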
